A study of Mus musculus with 8 samples.

Results

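The genes described here are 42 mesenchymal and fibroblast transcription factors, picked by gene symbol from the 24346 genes of the study. No cutoff on a measured value was used, but earlier results of these data were known when the list was chosen. All 42 symbols were present, Foxf1 among them under that name. The study sorted live podoplanin+ stromal cells that lacked CD45, CD31, EpCAM and 7AAD signal from whole colons of mice aged 12 weeks, by flow cytometry, and sequenced full-length cDNA of each mouse. The 4 cKO mice carried Pdgfra cre and Il10ra flox/flox, and the 4 WT mice carried Il10ra flox/flox with no Cre. WT therefore names mice that also carry floxed alleles, and Cre was present in cKO mice only, so that Cre itself and the loss of Il10ra cannot be told apart. The Pdgfra promoter drives Cre in Pdgfra-expressing fibroblasts and their precursors, whereas the gate on podoplanin also admits stromal cells without it. The title of the series puts the question as what the interleukin-10 receptor of fibroblasts does for type I interferon signalling and disease of the large intestine. The comparison here asks whether the transcription factors that define gut mesenchyme stood at other levels in cKO cells.

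Mesenchymal cells of the gut form in the splanchnic mesoderm under Hedgehog signals from the epithelium, and the forkhead factors Foxf1 and Foxf2 and the homeobox factor Nkx2-3 are known markers of that origin. Basic helix-loop-helix factors such as Tcf21 and Twist1 and homeobox factors such as Prrx1 mark fibroblast lineages in many organs. Snai and Zeb proteins repress epithelial genes in mesenchymal cells. The C/EBP proteins are different in kind, since cytokines induce them quickly in many cell types.

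Il10ra (chromosome 9, 45253837 to 45269149, mm10, minus strand), the gene of the receptor chain that binds interleukin-10, was low in all libraries. Its FPKM (fragments scaled by transcript length and library size) was 0.439, 0.273, 0.633 and 0.636 in cKO replicates 1 to 4, against 0.842, 0.665, 0.614 and 0.403 in WT replicates 1 to 4. The groups overlapped (0.495 ± 0.175 in cKO and 0.631 ± 0.181 in WT, SD, n = 4 each; exact permutation p = 0.4, two-sided). FPKM covers all exons together and the labels name no floxed exon, so this does not check the deletion. Libraries were of like depth, from 0.849 to 1.07 of the median, which was put at 17900000 fragments, and correlated at 0.965 to 0.989 with each other. Fibroblast markers were abundant, with a sum of 9 markers between 17231 and 21063 FPKM in cKO and between 18876 and 19855 FPKM in WT. Epithelial markers were also present: the sum of 12 of them ran from 38.1 to 690 FPKM in cKO, where replicates 1 and 2 were highest, and from 53.6 to 101 FPKM in WT. In sorted bulk cells, fewer cells of a type and less RNA per cell cannot be told apart.

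Most of the 42 factors were measured well. A mean of at least 1 FPKM over the 8 libraries, the level needed to enter the test, was reached by 35 of them, and 29 reached 5 FPKM. FPKM is per transcript length, so that levels can be ordered between genes. Cebpd was the most abundant at 206 ± 17.5 FPKM in cKO and 208 ± 13.9 FPKM in WT, at place 382 of the 11506 genes tested. Tcf21 followed at place 516, then Cebpb at 997, Foxf1 at 1003, Osr1 at 1119 and Klf9 at 1129, with Ebf1 at 1245. The ranges over libraries of Cebpb, Foxf1, Osr1 and Klf9 overlapped, so that their order is not firm. At the low end, Barx1, Foxc2 and Foxc1 had means under 0.4 FPKM in both groups.

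**Figure D1:**
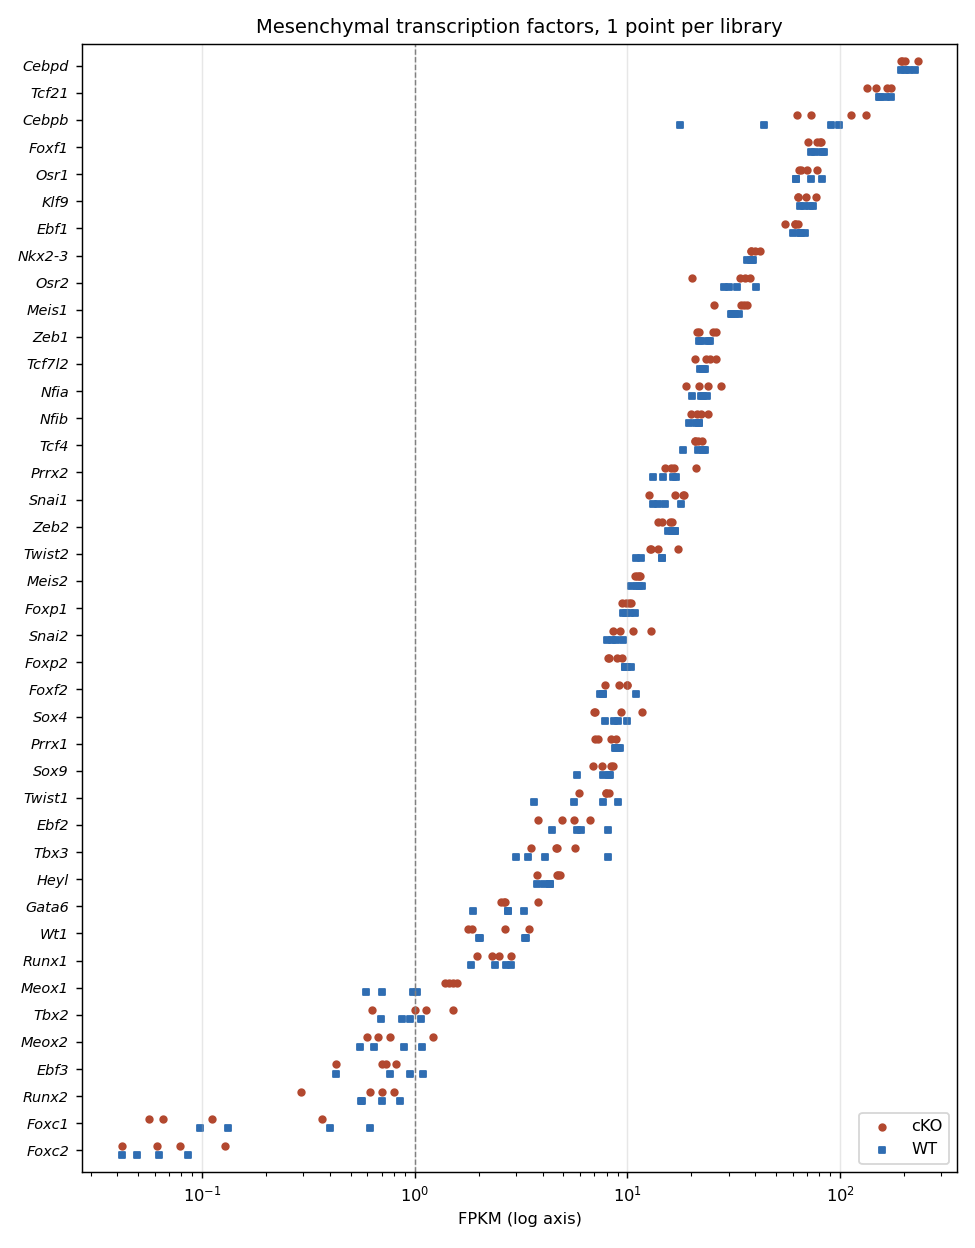
FPKM (log axis) of 41 members in each library, from the most abundant at the top to the least, with cKO as circles above WT as squares and the test minimum of 1 FPKM as a dashed line (Barx1, at 0 in most libraries, is not drawn). Cebpd, Tcf21, Cebpb and Foxf1 are at the top, and Meox1 and Foxp2 have groups that do not overlap.

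None of the 35 tested factors passed the test between cKO and WT cells in limma over all 11506 genes (adjusted p = 0.897 to 0.996). Over all genes 1 passed, which is 0.00869% and no member. At an unadjusted p under 0.05 stood 2 members, Meox1 with a higher mean in cKO and Foxp2 with a lower mean. That is 5.71% of the members, against 5.41% of all genes tested (2.37% with a higher and 3.03% with a lower mean in cKO), a share near the background. This count moved with single libraries. Without cKO replicate 2 it was 5 (14.3%, against 5.55% of all genes). The count was 1 (2.86%) without cKO replicate 4, against 5.26% of all genes, and without WT replicate 2, against 3.65%. It was 4 (11.4%, against 6.65%) with the epithelial marker mean as a covariate and 6 (17.1%, against 6.61%) without cKO replicates 1 and 2 together. The same 2 members were those whose groups did not overlap, again 5.71%, against 3.26% of all genes (1.36% with all cKO libraries above all WT libraries and 1.9% with all below).

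Differences were small as well as uncalled. The mean was higher in cKO for 20 members and lower for 15, and 47.4% of all genes tested had a higher mean in cKO. When every library was scaled to the same FPKM sum, the members split 25 to 10. All genes moved with that scaling, to 6970 higher and 4536 lower. The median difference in log2(FPKM + 1), cKO minus WT, was 0.02 over the members and -0.01 over all genes tested, and the median absolute difference was 0.0670 over the members and 0.0678 over all genes. For 29 of the 35 the 95% interval lay wholly within 0.5 log2 units of 0. The median reach of the interval to either side was 0.225 log2 units, from 0.114 for Nkx2-3 to 1.08 for Cebpb, so that the interval of Cebpb still holds differences of over 1 log2 unit. The members' counts and medians here describe those that passed the minimum, not all 42.

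**Figure D2:**
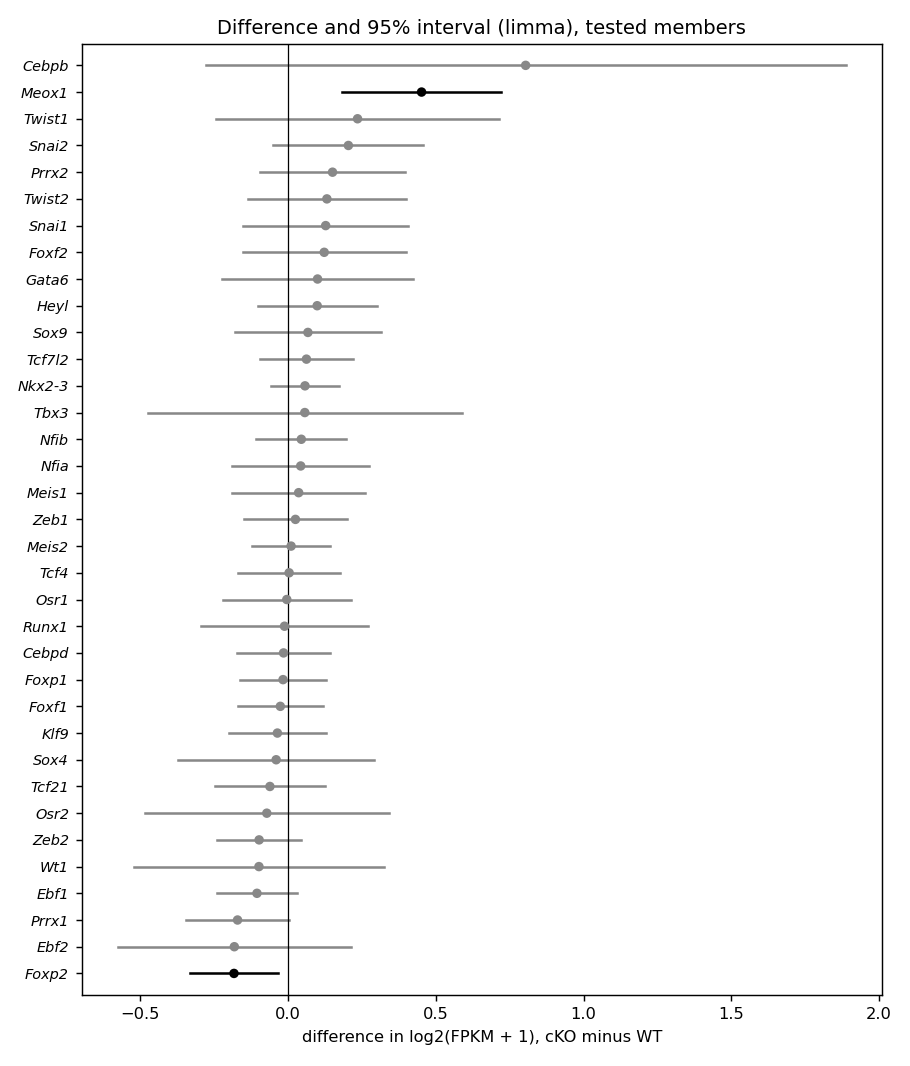
Difference in log2(FPKM + 1), cKO minus WT, with its 95% interval from limma, for the 35 members tested; black points and lines mark Meox1 and Foxp2, whose groups did not overlap. Nearly all points lie close to 0, Cebpb has by far the longest interval, and no member passed the test over all genes.

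Foxf1 (chromosome 8, 121084386 to 121088144, plus strand), a target of Hedgehog signals that is needed for gut mesenchyme, was among the most stable abundant members. It had 77.8, 70.8, 80.5 and 81.1 FPKM in cKO replicates 1 to 4, against 73.1, 76.1, 84.4 and 82.3 FPKM in WT replicates 1 to 4. The groups overlapped, with a log2 difference of -0.03 (95% interval -0.17 to 0.12, SE 0.06, adjusted p = 0.983). Its relative Foxf2 (chromosome 13, 31625816 to 31631403, plus strand), which acts in the same tissue, had 9.16, 7.83, 10.01 and 9.94 FPKM in cKO and 7.48, 7.72, 11.03 and 7.66 FPKM in WT. WT replicate 3 stood above all other libraries and the remaining WT libraries below all cKO libraries, so that the groups overlapped through 1 library (log2 difference 0.12, 95% interval -0.15 to 0.40, adjusted p = 0.948). Without that library the Foxf2 difference was 0.24 (unadjusted p = 0.0281, adjusted p = 0.937), and without WT replicate 1 it was 0.07. Foxf1 was above Foxf2 in all 8 libraries, 8.04 to 9.04 times in cKO and 7.66 to 10.7 times in WT.

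Foxc2 lies next to Foxf1 and Foxc1 next to Foxf2 on their chromosomes, and both neighbours were nearly silent. Foxc1 (chromosome 13, 31806633 to 31812476), a factor of mesenchyme around vessels and of skeletal progenitors, rested on 27, 8, 5 and 4 fragments in cKO, against 28, 8, 7 and 44 in WT. The high libraries were cKO replicate 1 and WT replicates 1 and 4, and totals were 44 fragments in cKO (95% Poisson interval 31.97 to 59.1) and 87 in WT (69.7 to 107), where the interval covers counting error only. The groups overlapped (exact permutation p = 0.2). Foxc2 (chromosome 8, 121116171 to 121118895), a factor of lymphatic valves and mesenchyme, had 2 to 6 fragments per library in cKO and 2 to 4 in WT.

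Foxp2 (chromosome 6, 14901349 to 15441977, plus strand), a transcriptional repressor of the forkhead family, was the member with the smallest unadjusted p among those with a lower mean in cKO. It had 8.16, 8.94, 9.41 and 8.12 FPKM in cKO, against 9.79, 10.4, 9.70 and 9.92 FPKM in WT. All 4 cKO libraries lay below all 4 WT libraries, though cKO replicate 3 and WT replicate 3 were close. Means were 8.66 ± 0.629 FPKM in cKO and 9.95 ± 0.304 FPKM in WT (SD, n = 4 each), a log2 difference of -0.18 (95% interval -0.33 to -0.03, SE 0.07, unadjusted p = 0.0207, adjusted p = 0.897). An exact permutation test of this gene alone gave its smallest possible two-sided value, p = 0.0286, from 70 arrangements. Foxp1 (chromosome 6, 98925338 to 99522721, minus strand), which pairs with Foxp2 and acts as a repressor too, had 10.2, 10.5, 9.90 and 9.42 FPKM in cKO and 10.3, 9.49, 10.8 and 9.83 FPKM in WT. Its groups overlapped throughout (log2 difference -0.02, adjusted p = 0.99), and the ratio of Foxp1 to Foxp2 was 1.05 to 1.25 in cKO and 0.914 to 1.12 in WT, with overlap.

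Nkx2-3 (chromosome 19, 43612325 to 43615892, plus strand), a homeobox factor of midgut and hindgut mesoderm that controls the vascular addressin Madcam1, varied little between mice. It had 38.2, 42.1, 38.03 and 39.9 FPKM in cKO, against 36.6, 37.98, 38.4 and 38.9 FPKM in WT. The groups overlapped, and the log2 difference of 0.06 had a 95% interval of -0.06 to 0.17 (adjusted p = 0.931). Its spread within groups, an SD of 0.0544 log2 units, was lower than that of all but 4.30% of the genes tested. The promoter is shown because this gene gives the tightest interval among the members; it holds a tandem repeat of TGACG, the core of the cyclic AMP response element. Capitals mark TGACG and CCAAT on either strand in the 250 bases before the RefSeq start (GRCm38.p6, chr19:43612075-43612324, plus strand).
Nkx2-3: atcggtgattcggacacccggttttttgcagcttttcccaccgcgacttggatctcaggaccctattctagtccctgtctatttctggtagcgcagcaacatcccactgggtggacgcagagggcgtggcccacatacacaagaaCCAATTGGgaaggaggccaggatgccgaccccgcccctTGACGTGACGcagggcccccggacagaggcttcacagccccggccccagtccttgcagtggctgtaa

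Meox1 (chromosome 11, 101877510 to 101894374, minus strand), a homeobox factor of somites that is known to be active in activated fibroblasts, had the smallest unadjusted p of all members. Its FPKM was 1.52, 1.58, 1.46 and 1.39 in cKO, against 0.704, 0.592, 0.980 and 1.03 in WT. All 4 cKO libraries stood above all 4 WT libraries, with means of 1.49 ± 0.0803 FPKM in cKO and 0.827 ± 0.212 FPKM in WT (SD, n = 4 each). The values stood for 59, 60, 59 and 52 fragments in cKO and for 26, 19, 37 and 39 in WT, in total 230 (95% Poisson interval 201 to 262) and 121 (100.4 to 144.6). The log2 difference was 0.45 (95% interval 0.18 to 0.72, SE 0.12, unadjusted p = 0.00382), and at place 40 of 11506 by p it did not pass (adjusted p = 0.897). An exact permutation test of Meox1 alone gave p = 0.0286, the smallest it can give. The WT mean was under 1 FPKM, so Meox1 entered the test through the cKO group.

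Some transcripts of vessel cells had higher levels in cKO libraries, in the direction of Meox1. The mean log2(FPKM + 1) of 6 lymphatic endothelial markers was 1.18, 0.708, 0.983 and 0.879 in cKO, against 0.291, 0.157, 0.615 and 0.233 in WT. These groups did not overlap (0.937 ± 0.197 in cKO and 0.324 ± 0.201 in WT; exact permutation p = 0.0286), but that separation depended on Ccl21a. Near-identical copies of Ccl21a share fragments, so its value is uncertain; without it the means were 0.342 to 0.675 in cKO and 0.188 to 0.349 in WT, which overlapped (exact permutation p = 0.0571). All 6 markers had a higher mean in cKO, and none was at 0 in all libraries. In 4 of them (Ccl21a, Flt4, Mmrn1 and Reln) all cKO libraries stood above all WT libraries, as in 1.36% of all genes tested. Only 1 of the 6, Ccl21a, reached the test minimum, so that share is of more abundant genes. Flt4 averaged 0.227 FPKM in cKO and 0.0764 FPKM in WT, and Reln 0.0978 FPKM in cKO and 0.0304 FPKM in WT. The summed level of the 6 was 6.18 to 15.3 FPKM in cKO and 0.712 to 5.47 FPKM in WT. Without Ccl21a, which was close to 0 in WT replicates 1, 2 and 4, it was 1.38 to 3.39 FPKM in cKO and 0.710 to 1.55 FPKM in WT. Mmrn1, a secreted protein of lymphatic endothelium, had 0.524 to 1.396 FPKM in cKO and 0.127 to 0.404 FPKM in WT, whereas Prox1, the factor that specifies lymphatic endothelium, overlapped at 0.278 ± 0.0791 FPKM in cKO and 0.232 ± 0.107 FPKM in WT. All 6 blood endothelial markers had a higher mean in cKO too, and 3 of them reached the test minimum. Only Emcn, which did not reach it, had no overlap. The summed level was 8.13 to 22.03 FPKM in cKO and 4.78 to 8.54 FPKM in WT (exact permutation p = 0.0571 for the mean log2 level). All 4 glial markers likewise had a higher mean in cKO, and none of these reached the test minimum. Their sums were 1.51 to 2.28 FPKM in cKO and 0.659 to 1.56 FPKM in WT (exact permutation p = 0.0571 for the mean log2 level). Higher means in cKO were not particular to these lists. They were found for 12 of 12 epithelial, 4 of 4 mesothelial, 8 of 10 myeloid and 8 of 9 smooth muscle and pericyte markers. The counts were 3 of 7 for lymphoid markers, 1 of 3 for interstitial cells of Cajal and 4 of 9 for fibroblasts. Over all genes tested, 47.4% had a higher mean in cKO. By mean log2 level, the epithelial, mesothelial, myeloid and smooth muscle lists overlapped between groups. Exact permutation p was 0.371 for the epithelial, 0.6 for the mesothelial, 0.4 for the myeloid and 0.0857 for the smooth muscle list. In each of them cKO replicate 1 was the highest library, as in the endothelial and glial lists. The part of any of these cells in the Meox1 values was not tested.

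**Figure D3:**
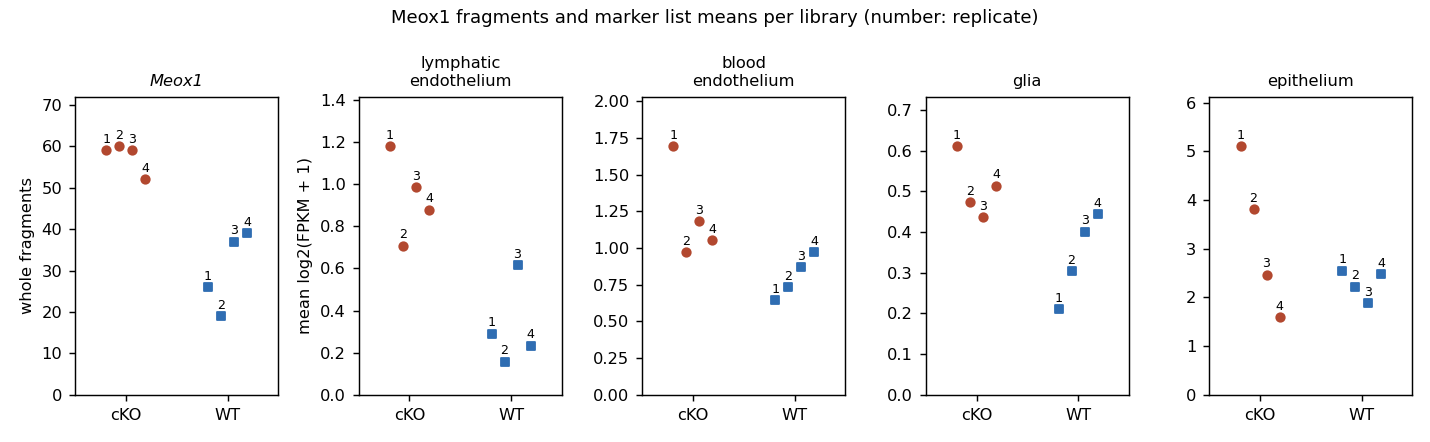
Meox1 fragments per library and the mean log2(FPKM + 1) of marker lists of other cell types, cKO at the left and WT at the right of each panel, with the replicate number beside each point. Meox1 has no overlap between cKO and WT libraries, the lymphatic endothelial list has none only while Ccl21a is counted, and cKO replicates 1 and 2 lead the epithelial list.

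Meox2 (chromosome 12, 37108540 to 37179534), the relative of Meox1 that restrains vessel growth, did not share the pattern and stayed under the minimum. It had 51, 31, 29 and 24 fragments in cKO, against 43, 19, 36 and 26 in WT (0.815 ± 0.282 FPKM in cKO and 0.794 ± 0.243 FPKM in WT; exact permutation p = 0.914). Meox1 was above Meox2 in every cKO library, 1.24 to 2.32 times, and 0.647 to 1.605 times as high in WT, where the order varied. Barx1 (chromosome 13, 48662998 to 48666507), the homeobox factor of stomach mesenchyme, was represented by 1 fragment in each of cKO replicates 1 and 4 and by none in WT. A count of 0 over the 4 WT libraries together allows up to 3 fragments. As the cKO number is not firm, it was not set against that limit. The groups overlapped at 0 (exact permutation p = 0.429).

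Prrx1 and Prrx2, paired-related homeobox factors of limb and connective tissue mesenchyme, differed in opposite directions without passing the test. Prrx1 (chromosome 1, 163245119 to 163313710, minus strand) had 7.03, 8.34, 8.84 and 7.31 FPKM in cKO, against 8.77, 8.998, 9.22 and 8.87 FPKM in WT. Only cKO replicate 3 reached into the narrow WT range (log2 difference -0.17, 95% interval -0.34 to 0.00, SE 0.08, unadjusted p = 0.0530, adjusted p = 0.897; exact permutation p = 0.0571). Prrx2 (chromosome 2, 30834972 to 30881251, plus strand) had 21.04, 16.1, 16.6 and 14.99 FPKM in cKO, against 13.2, 14.6, 17.03 and 16.5 FPKM in WT. Its groups overlapped but for a high cKO replicate 1, without which the log2 difference was 0.05 in place of 0.15 (95% interval -0.10 to 0.40, adjusted p = 0.929). The ratio of Prrx2 to Prrx1 within a library was 2.99, 1.93, 1.88 and 2.05 in cKO, against 1.51, 1.63, 1.85 and 1.86 in WT. Of the paralog ratios compared it alone had groups that did not overlap, and the highest WT and lowest cKO values were nearly equal. The share of such ratios among other gene pairs was not computed, so this separation has no background to be set against. The promoters of this pair are shown because the genes encode like proteins and share neither base composition nor any of the motifs searched. Prrx1 has 47.6% G or C (chr1:163313651-163313900, minus strand) and Prrx2 has 70% (chr2:30845117-30845366, plus strand), in the 250 bases before the RefSeq start (GRCm38.p6), with no motif to capitalise.
Prrx1: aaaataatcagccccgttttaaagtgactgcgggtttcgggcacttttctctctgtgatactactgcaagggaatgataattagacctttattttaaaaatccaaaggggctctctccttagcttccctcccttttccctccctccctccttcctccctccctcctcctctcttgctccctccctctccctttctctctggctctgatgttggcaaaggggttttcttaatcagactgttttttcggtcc
Prrx2: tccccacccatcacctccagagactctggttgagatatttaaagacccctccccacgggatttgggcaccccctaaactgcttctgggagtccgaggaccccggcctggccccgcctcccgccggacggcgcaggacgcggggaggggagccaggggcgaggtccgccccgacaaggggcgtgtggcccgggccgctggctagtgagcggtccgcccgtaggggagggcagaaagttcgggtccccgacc

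Meis1 and Meis2, homeobox cofactors that bind DNA together with Pbx proteins, were at like levels in both groups. Meis1 had 25.7, 35.5, 34.2 and 36.5 FPKM in cKO, against 32.1, 30.8, 33.4 and 31.03 FPKM in WT. The low library was cKO replicate 1, and the other cKO libraries stood above all WT libraries (log2 difference 0.04, 95% interval -0.19 to 0.26, adjusted p = 0.985). Meis2 had 10.9, 11.3, 11.5 and 11.1 FPKM in cKO, against 11.7, 10.4, 11.05 and 11.4 FPKM in WT. It was the steadiest member, with a spread lower than that of all but 3.83% of genes, and its 95% interval reached from -0.12 to 0.14 log2 units (adjusted p = 0.994).

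Tcf21 (chromosome 10, 22817281 to 22820174, minus strand), a helix-loop-helix factor of fibroblast precursors in heart, lung and kidney, was the second most abundant member. It had 147, 134, 173 and 166 FPKM in cKO, against 155, 152, 173 and 165 FPKM in WT. The groups overlapped (log2 difference -0.06, 95% interval -0.25 to 0.12, SE 0.08, adjusted p = 0.966). Tcf4, the broadly expressed E protein that pairs with such factors, averaged 21.4 ± 0.803 FPKM in cKO and 21.4 ± 2.23 FPKM in WT, with a log2 difference of 0.00 (adjusted p = 0.996).

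Twist1 (chromosome 12, 33957671 to 33959829, plus strand), which keeps mesenchymal cells from differentiating, varied more between mice. It had 8.201, 7.91, 7.95 and 5.94 FPKM in cKO, against 5.59, 3.63, 9.01 and 7.68 FPKM in WT. WT replicate 2 was lowest and WT replicate 3 highest of all libraries, so that the WT range enclosed the cKO range. Counting error was small beside this, with 158 to 229 fragments in cKO and 83 to 242 in WT. The log2 difference was 0.23 (95% interval -0.24 to 0.71, SE 0.21, adjusted p = 0.934), and 0.02 without WT replicate 2. Twist2 (chromosome 1, 91801461 to 91848028, plus strand), a factor of dermal and other fibroblasts, had 12.9, 17.4, 12.8 and 13.9 FPKM in cKO, against 14.5, 11.6, 14.6 and 10.98 FPKM in WT. Its groups overlapped (log2 difference 0.13, 95% interval -0.14 to 0.40, adjusted p = 0.934; 0.04 without cKO replicate 2 and 0.06 without WT replicate 4), and it was above Twist1 in every library, 1.57 to 2.34 times in cKO and 1.43 to 3.19 times in WT.

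Heyl (chromosome 4, 123233556 to 123249875, plus strand), a Notch effector known from pericytes and smooth muscle, had 3.77, 4.84, 4.66 and 4.73 FPKM in cKO, against 4.31, 3.77, 4.08 and 4.34 FPKM in WT. The 3 higher cKO libraries stood above all WT libraries and cKO replicate 1 was level with the lowest WT library (log2 difference 0.10, 95% interval -0.10 to 0.30, adjusted p = 0.934). Of the smooth muscle and pericyte markers, 8 of 9 had a higher mean in cKO, none was at 0 in all libraries, and their sum was 35.8 to 64.1 FPKM in cKO and 38.3 to 49.0 FPKM in WT (exact permutation p = 0.0857 for the mean log2 level). Their part in the Heyl values was not tested.

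Snai1, Snai2, Zeb1 and Zeb2, zinc finger repressors of Cdh1 and other epithelial genes, were all well above the minimum. Snai2 (chromosome 16, 14705852 to 14709385, plus strand) had 10.6, 8.55, 12.9 and 9.22 FPKM in cKO, against 7.99, 8.88, 9.58 and 8.49 FPKM in WT. Replicates 1 and 3 of cKO stood above all WT libraries and the other cKO libraries within the WT range (log2 difference 0.20, 95% interval -0.05 to 0.46, SE 0.11, unadjusted p = 0.104, adjusted p = 0.897). Without cKO replicate 3 the Snai2 difference was 0.10. Snai1 (chromosome 2, 167538195 to 167542814, plus strand) had 16.8, 12.7, 18.4 and 18.3 FPKM in cKO, against 14.01, 13.2, 15.01 and 17.8 FPKM in WT. It too overlapped (log2 difference 0.13, adjusted p = 0.946; 0.24 without cKO replicate 2 and 0.07 without WT replicate 2), and Snai1 was above Snai2 in all 8 libraries. Zeb2 (chromosome 2, 44983632 to 45117395, minus strand) had 13.98, 14.5, 15.9 and 16.3 FPKM in cKO, against 16.7, 16.1, 16.8 and 15.5 FPKM in WT. Replicates 1 and 2 of cKO were below all WT libraries and the others within the WT range (log2 difference -0.10, 95% interval -0.24 to 0.05, adjusted p = 0.92). These 2 libraries also had the most epithelial transcripts, and with the epithelial marker mean as a covariate the log2 difference of Zeb2 was -0.04. The same covariate moved other members either way, from 0.04 to 0.15 for Meis1 and from 0.15 to 0.06 for Prrx2. The part of epithelial RNA in the Zeb2 difference was not tested. An antisense gene, Zeb2os, overlaps Zeb2 and averaged 0.938 FPKM in cKO and 0.808 FPKM in WT; without strand its reads cannot be told apart from those of Zeb2. Zeb1 had 21.7, 21.4, 25.2 and 26.05 FPKM in cKO, against 22.2, 23.96, 21.7 and 24.5 FPKM in WT, with overlap (log2 difference 0.02, adjusted p = 0.986). It was above Zeb2 in every library, 1.47 to 1.602 times in cKO and 1.29 to 1.58 times in WT.

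Osr1 and Osr2, odd-skipped related zinc finger factors of fibroblast progenitors, were abundant. Osr1 (chromosome 12, 9570116 to 9581500, plus strand) had 64.1, 65.9, 77.7 and 69.8 FPKM in cKO, against 62.2, 62.4, 73.0 and 81.9 FPKM in WT, with full overlap and a 95% interval of -0.22 to 0.21 log2 units (adjusted p = 0.996). Osr2 (chromosome 15, 35296098 to 35303305, plus strand) had 35.6, 37.9, 33.9 and 20.1 FPKM in cKO, against 32.7, 30.2, 40.4 and 28.5 FPKM in WT. The lowest library by a wide margin was cKO replicate 4, and the log2 difference of -0.07 (95% interval -0.48 to 0.34, adjusted p = 0.984) was 0.13 without it. Osr1 was above Osr2 in every library, 1.74 to 3.47 times in cKO and 1.81 to 2.87 times in WT.

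Klf9, a Krüppel-like factor induced by glucocorticoids, was the most abundant of the remaining zinc finger members. It had 63.4, 76.9, 69.6 and 63.4 FPKM in cKO, against 74.4, 67.9, 72.4 and 65.1 FPKM in WT, with overlap (log2 difference -0.04, 95% interval -0.20 to 0.13, adjusted p = 0.979). Gata6, a factor of gut mesoderm and endoderm, averaged 2.92 ± 0.597 FPKM in cKO and 2.66 ± 0.574 FPKM in WT. Wt1, a factor of mesothelium and of mesothelium-derived mesenchyme, averaged 2.44 ± 0.783 FPKM in cKO and 2.67 ± 0.755 FPKM in WT, and was highest in cKO replicate 4 and WT replicates 1 and 2. The summed level of mesothelial markers was 7.12 FPKM in cKO replicate 1, 1.12 to 2.31 FPKM in the other cKO libraries and 0.710 to 2.60 FPKM in WT.

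T-box and Runt factors were low. Tbx3 (chromosome 5, 119670669 to 119684724, plus strand), a repressor of mesenchymal organ buds, had 5.67, 3.51, 4.62 and 4.68 FPKM in cKO, against 3.42, 4.09, 8.13 and 3.00 FPKM in WT. A single WT library, replicate 3, was highest, and the 95% interval reached from -0.47 to 0.59 log2 units (adjusted p = 0.991). Tbx2, its relative, stayed just under the minimum at 1.07 ± 0.368 FPKM in cKO and 0.899 ± 0.160 FPKM in WT, from 40 to 99 fragments in cKO and 44 to 68 in WT. Runx1, known from blood and from activated mesenchyme, had 2.85, 1.97, 2.49 and 2.32 FPKM in cKO, against 2.703, 2.39, 2.84 and 1.84 FPKM in WT, with overlap (log2 difference -0.01, adjusted p = 0.994). Runx2, the factor of bone formation, stayed under the minimum at 0.293 to 0.796 FPKM in cKO and 0.559 to 0.849 FPKM in WT. Tbx3 was above Tbx2 and Runx1 above Runx2 in every library.

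Among the HMG-box members, Tcf7l2, a transcription factor of the Wnt pathway, averaged 23.7 ± 2.26 FPKM in cKO and 22.6 ± 0.447 FPKM in WT (log2 difference 0.06, adjusted p = 0.954). Sox4, a factor of progenitor cells, had 9.36, 11.7, 6.94 and 7.02 FPKM in cKO, against 9.06, 8.64, 9.97 and 7.84 FPKM in WT. Its cKO replicates 1 and 2, which held the most epithelial transcripts, were above cKO replicates 3 and 4; the part of epithelial RNA in this order was not tested. Sox9, a factor of cartilage and of crypt base epithelium, had 8.53, 6.904, 7.61 and 8.41 FPKM in cKO, against 7.697, 8.197, 8.29 and 5.82 FPKM in WT. It was highest in cKO replicate 1, which held the most epithelial transcripts, and lowest among cKO libraries in cKO replicate 2, which held the next most (log2 difference 0.07, adjusted p = 0.973). The part of epithelial RNA in it was not tested.

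Ebf1 (chromosome 11, 44617317 to 45008091, plus strand), the early B cell factor that is also widely active in fibroblasts, was the leading member of its family. It had 54.9, 61.2, 63.4 and 61.7 FPKM in cKO, against 65.0, 65.7, 68.7 and 60.3 FPKM in WT. Only WT replicate 4 lay among the cKO libraries (log2 difference -0.11, 95% interval -0.24 to 0.03, SE 0.06, unadjusted p = 0.115, adjusted p = 0.897). Ebf2, known from adipocyte precursors, had 6.68, 3.79, 4.94 and 5.59 FPKM in cKO and 8.12, 5.81, 4.42 and 6.09 FPKM in WT, with overlap (log2 difference -0.18, 95% interval -0.58 to 0.21, adjusted p = 0.937). Without cKO replicate 2 the Ebf2 difference was -0.06, without WT replicate 1 it was -0.05, without cKO replicate 1 it was -0.29 and without WT replicate 3 it was -0.30. Ebf3 stayed under the minimum at 0.425 to 0.813 FPKM in cKO and 0.427 to 1.09 FPKM in WT, with means of 0.669 ± 0.169 FPKM in cKO and 0.808 ± 0.287 FPKM in WT. All 3 thus had a lower mean in cKO, none past the test. The nuclear factor I genes Nfia and Nfib were nearly equal in level, and their ratio was 0.952 to 1.14 in cKO and 1.01 to 1.08 in WT. Nfia, known from glial development, had 18.9, 21.7, 23.9 and 27.5 FPKM in cKO, against 20.04, 23.6, 22.1 and 22.8 FPKM in WT. Nfib, known from lung development, had 19.9, 22.2, 21.2 and 24.05 FPKM in cKO, against 19.6, 21.8, 21.8 and 21.1 FPKM in WT. For both genes the highest library was cKO replicate 4, and the groups overlapped (adjusted p = 0.983 for Nfia and 0.969 for Nfib).

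Cebpb (chromosome 2, 167688915 to 167690418, plus strand), the C/EBP factor of inflammatory and acute-phase genes, had the largest difference in mean and by far the widest spread. It had 133, 73.0, 62.6 and 112 FPKM in cKO, against 44.1, 17.7, 90.7 and 98.4 FPKM in WT. Both groups were split: WT replicates 1 and 2 were below all cKO libraries, and WT replicates 3 and 4 lay among them. Means were 95.1 ± 32.9 FPKM in cKO and 62.7 ± 38.4 FPKM in WT (SD, n = 4 each), with a log2 difference of 0.80 (95% interval -0.28 to 1.89, SE 0.48, unadjusted p = 0.129, adjusted p = 0.901; exact permutation p = 0.257). Without WT replicate 2 the log2 difference was 0.31, and without WT replicate 4 it was 1.11. The highest library had 7.51 times the FPKM of the lowest, and the spread within groups was above that of 98.8% of the genes tested. Part of the exons of Cebpb overlaps Tmem189 on the other strand, which averaged 16.5 FPKM in cKO and 17.1 FPKM in WT; without strand their reads there cannot be told apart.

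The Cebpb promoter is shown because this gene carries the widest spread among the members. In the 250 bases before the RefSeq start (GRCm38.p6, chr2:167688665-167688914, plus strand), 81.6% of bases are G or C, a share that 0.707% of all promoters reach. Capitals mark TGACG or its reverse complement, which begin 180, 53 and 7 bases before the start.
Cebpb: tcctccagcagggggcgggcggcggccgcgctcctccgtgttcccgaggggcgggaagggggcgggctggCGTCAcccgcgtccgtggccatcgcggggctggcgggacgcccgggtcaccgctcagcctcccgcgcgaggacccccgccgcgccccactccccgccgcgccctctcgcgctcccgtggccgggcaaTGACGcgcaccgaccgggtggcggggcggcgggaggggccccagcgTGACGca

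Cebpd (chromosome 16, 15887286 to 15891031, plus strand), the C/EBP factor that is induced along with Cebpb in acute-phase responses, did not vary with it. It had 194, 232, 197 and 202 FPKM in cKO, against 211, 202, 226 and 193 FPKM in WT. The groups overlapped throughout (log2 difference -0.02, 95% interval -0.17 to 0.14, SE 0.07, adjusted p = 0.993). The ratio of Cebpd to Cebpb was 1.46 to 3.17 in cKO and 1.97 to 11.4 in WT. Spidr overlaps Cebpd on the other strand and averaged 11.6 FPKM in cKO and 11.5 FPKM in WT.

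**Figure D4:**
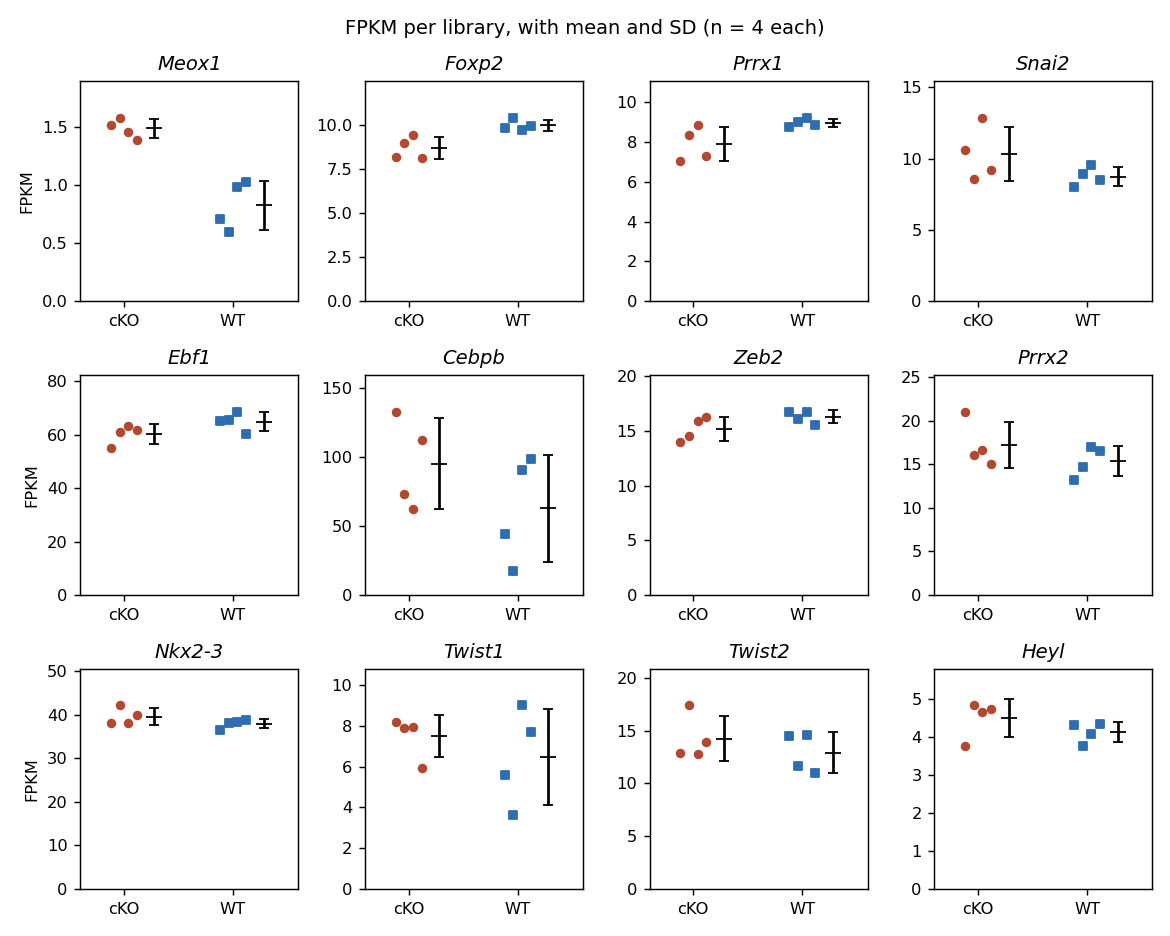
FPKM of the 12 members with the smallest unadjusted p in each library, cKO at the left and WT at the right of each panel, with the mean and SD of 4 libraries; each panel has its own axis from 0. Meox1 and Foxp2 separate cKO from WT libraries, and Cebpb ranges from 17.7 to 133 FPKM with both groups spread out.

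The members varied somewhat more between mice of a group than other genes did. Their median SD within groups was 0.159 log2 units, against 0.128 over all genes tested, as a description of these libraries. Besides Cebpb, Tbx3 (above 96.2% of genes), Twist1 (95.3%), Osr2 (93.8%), Wt1 (93.1%) and Ebf2 (92.3%) stood near the top, whereas Meis2, Nkx2-3 and Foxp1 (above 9.85%) stood near the bottom.

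**Figure D5:**
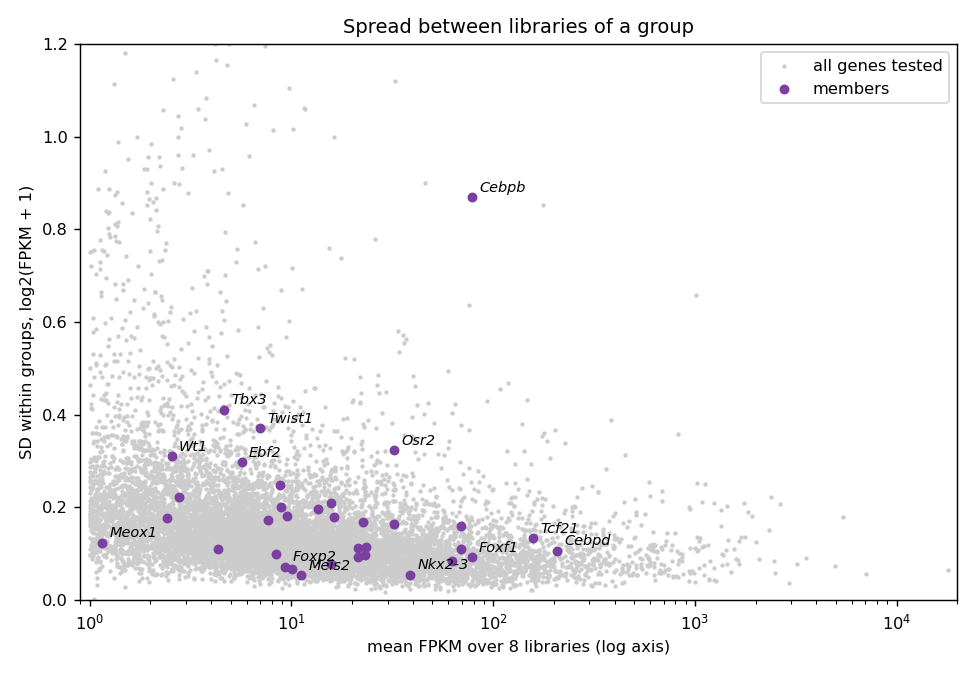
SD of log2(FPKM + 1) within groups against the mean FPKM over 8 libraries (log axis), for all genes tested (grey) and the 35 members tested (purple); 89 genes lie above the top of the axis. Cebpb has the widest spread of the members, above that of 98.8% of all genes tested, and Meis2 and Nkx2-3 have the narrowest.

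Genes that work with these factors were looked at as a further list of 35 partners and inhibitors, of which 28 could be tested. None passed (0 higher and 0 lower in limma), and 3 had an unadjusted p under 0.05, all with a higher mean in cKO. That is 10.7%, against 5.41% of all genes (2.37% with a higher mean). The count was 1 (3.57%) without WT replicate 2, against 3.65% of all genes, and with the epithelial covariate, against 6.65%. With the replicate block it was 5 (17.9%), against 5.35% of all genes. The median log2 difference was 0.04, against -0.01 over all genes. Pbx3, a homeobox partner of Meis proteins, had 3.73, 3.68, 3.31 and 4.88 FPKM in cKO, against 3.10, 3.18, 2.69 and 2.67 FPKM in WT. All cKO libraries stood above all WT libraries (log2 difference 0.32, SE 0.11, unadjusted p = 0.0167, adjusted p = 0.897). The corepressors Tle3 (6.74 ± 0.611 FPKM in cKO and 5.70 ± 0.451 FPKM in WT) and Tle4 (2.43 ± 0.543 and 1.73 ± 0.278 FPKM in cKO and WT) overlapped between groups. Tcf12, an E protein that pairs with Tcf21 and Twist factors, averaged 15.1 ± 0.315 FPKM in cKO and 13.7 ± 1.10 FPKM in WT (unadjusted p = 0.0583).

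Of 28 genes listed as targets, 19 could be tested, and none passed or had an unadjusted p under 0.05 in limma. Not all of them are targets of a member. Fkbp5, Tsc22d3, Per1 and Zbtb16 were listed as genes induced by steroids, as Klf9 is, and Bmper and Pthlh were assigned to no one member. Their median log2 difference was -0.04, with 6 higher and 13 lower in mean in cKO. The split was 9 to 10 after quantile normalization, where all genes split 5233 to 6273. At the same FPKM sum it was 8 to 11, where all genes split 6970 to 4536. Vim, the mesenchymal intermediate filament, averaged 676 ± 56.8 FPKM in cKO and 748 ± 58.0 FPKM in WT (log2 difference -0.15, adjusted p = 0.897), and Fn1, fibronectin, 809 ± 62.4 FPKM in cKO and 856 ± 50.1 FPKM in WT. Il6, a cytokine gene that C/EBP factors bind, had 155, 99.4, 122 and 127 FPKM in cKO, against 165, 154, 124 and 122 FPKM in WT. Its groups overlapped (log2 difference -0.17, adjusted p = 0.929). The highest Il6 library was WT replicate 1, where Cebpb was low at 44.1 FPKM. Next came cKO replicate 1, where Cebpb was highest at 133 FPKM. Nearly level with it was WT replicate 2, where Cebpb was lowest at 17.7 FPKM. The relation of Il6 to Cebpb was not tested. Socs3, the feedback inhibitor of cytokine receptors, averaged 314 ± 16.4 FPKM in cKO and 330.3 ± 24.2 FPKM in WT.

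Promoters of 24 members were at hand, which left 18 without one. In the 250 bases before the start, the median share of G or C was 60.4% in members (40% to 85.6%) and 52% in 27025 promoters of the genome. A pair of GAAA runs with 2 bases between them, the core of the interferon-stimulated response element, was found on either strand in 1 member promoter, that of Ebf1, and in 3.05% of all promoters. TTCNNNGAA, the form bound by STAT factors, was found in 1, that of Klf9, and in 7.14% of all. TGACG was found in 8 (those of Barx1, Cebpb, Ebf3, Foxc1, Klf9, Nkx2-3, Tcf7l2 and Twist1) and in 17.8% of all, TATAAA in 3 and in 13% of all, and CCAAT in 12 and in 34.5% of all. A match describes letters in this window and is no evidence of binding.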

How the data were processed

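RNA-seq from sorted colon stromal cells of 4 cKO and 4 WT mice was analysed, with groups and replicate numbers from the genotype labels and titles. The authors deposited FPKM values, 1 table for each library with the same 24346 symbols. The submitters' processing notes name, for the mm10 build, Cufflinks 2.2.1 with Cuffdiff, Bowtie2 2.3.5.1, TopHat2 2.1.1 and SAMtools 0.1.18. The annotation, the settings of the aligner and any other scaling were not given in the sources used here. As a unit, FPKM divides by all fragments of a library, so that a few abundant genes can lower the values of all others. The labels describe SMART-Seq HT cDNA and NexteraXT libraries and name no strand step, so overlapping genes on opposite strands were treated as not separable.

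Values were tested as log2(FPKM + 1) with limma 3.58.1 in R 4.3.3 (lmFit, eBayes with a mean-variance trend, 2 groups), over the 11506 genes with a mean of at least 1 FPKM. P-values were adjusted by Benjamini-Hochberg over all of these genes, at a threshold of 0.05. The log2(FPKM + 1) scale understates the change of low genes. Single values were compared with two-sided exact permutation tests (70 arrangements, smallest p = 0.0286). The procedure was tested on simulated data. Plots were made with matplotlib 3.10.9, and other steps ran in Python 3.11.15 (pandas 2.3.3, scipy 1.17.1, numpy 2.4.6).

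Fragment numbers of low members were recovered from the steps between libraries, where every value came within 0.02 of a whole number, and depth was estimated from 100 genes with 1 transcript of at least 4000 bases (quartiles 13400000 and 18100000 fragments). The smallest whole numbers that came within 0.02 were taken, so true fragment numbers can be multiples of them. A count model was not used, since most genes gave no whole numbers. Intervals on fragments cover counting error only. Gene positions come from the GENCODE annotation of the same build, and promoters from a RefSeq table (GRCm38.p6) that was matched by symbol. Cebpd, Ebf2, Foxc2, Foxf1, Foxp2, Gata6, Heyl, Meox1, Nfib, Osr1, Osr2, Snai2, Sox9, Tbx2, Tbx3, Tcf4, Wt1 and Zeb1 had no entry there.

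The members and the lists were chosen with earlier results of these data known. Values are given in every library for the 12 members with the smallest p, the 6 most abundant, those whose groups did not overlap and the tested members of paralog pairs, and by range, mean or fragments for members under the minimum. For partners and targets the 4 with the smallest p are named. Mmrn1, Prox1, Ccl21a, Flt4, Reln and Emcn were named after their values were seen, and the lymphatic list without Ccl21a was added then too.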

Additional observations from a re-analysis of the deposited data

Results flagged for a closer look

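In 4 of the 84 groups of 4 libraries examined (42 members, 2 groups each), a single library stood apart from the other libraries of its group by more than the 95% critical value of Dixon's test, and chance alone gives about 1 in 20. Twist1 had its lowest cKO value, 5.94 FPKM, in replicate 4, against 7.91 to 8.201 FPKM in the other cKO libraries. Heyl had its lowest cKO value, 3.77 FPKM, in replicate 1, against 4.66 to 4.84 FPKM in the others. Gata6 had its highest cKO value, 3.81 FPKM, in the same library, against 2.56 to 2.67 FPKM in the others. Foxf2 had its highest WT value, 11.03 FPKM, in replicate 3, against 7.48 to 7.72 FPKM in the other WT libraries. None of these 4 genes passed the test between cKO and WT cells.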

How the results depend on the processing

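No member, partner or target gene passed the test under any of the 21 alternatives, and the smallest adjusted p of a member was 0.592 (Meox1). The log2 difference of Meox1 ranged from 0.39 to 0.80, with unadjusted p between 0.000607 and 0.0206; with a minimum of 5 FPKM it was not tested. That of Foxp2 ranged from -0.22 to -0.15, with unadjusted p between 0.0113 and 0.0786 and above 0.05 in 3 of 21 alternatives. The count of called genes over the whole table was 1 to 4 when each library was left out in turn (4 with cKO replicate 1 left out, 2 with cKO replicate 2 and 3 with WT replicate 3 left out), and 4 without cKO replicates 1 and 2 together. The last alternative was added after seeing the data. Same-numbered libraries did not deviate together (correlations 0.0182 to 0.0912), so the number was not taken as a pairing; with the replicate block 0 members and 1 gene over the whole table were called, and the median of the members stayed at 0.02.

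Of 862 member values under the alternatives, 65 had another sign than reported, in 19 members whose reported differences were at most 0.0997 log2 units. With quantile normalization these were Foxf1 (0.00392), Meis2 (-0.00287), Osr1 (0.0254), Cebpd (0.0251) and Meox2 (-0.0473). With the same FPKM sum they were Foxf1 (0.00856), Foxp1 (0.0149), Osr1 (0.0303), Runx1 (0.0124) and Cebpd (0.0197). With array weights they were Tcf4 (-0.00239), Osr1 (0.0425) and Meox2 (-0.0454). With the epithelial covariate they were Foxf1 (0.00826), Tcf21 (0.0149), Osr1 (0.0483), Gata6 (-0.0202) and Meox2 (-0.107). Without cKO replicates 1 and 2 together they were Foxf1 (0.0344), Tcf21 (0.0741), Osr1 (0.0844), Meox2 (-0.124) and Runx2 (0.0335), and Il10ra was 0.0100. With each library left out in turn, log2 differences ranged from -0.0622 to 0.0163 for Foxf1, -0.0449 to 0.0134 for Foxp1, -0.0156 to 0.147 for Meis1, -0.0201 to 0.0328 for Meis2, -0.116 to 0.00727 for Tcf21, -0.0686 to 0.0405 for Tcf4, -0.0230 to 0.0685 for Zeb1, -0.0594 to 0.0740 for Osr1, -0.166 to 0.127 for Osr2, -0.0108 to 0.178 for Gata6, -0.0841 to 0.313 for Tbx3, -0.102 to 0.0519 for Runx1, -0.178 to 0.0496 for Sox4, -0.0354 to 0.121 for Sox9, -0.0441 to 0.128 for Nfia, -0.00120 to 0.0865 for Nfib, -0.0729 to 0.0244 for Cebpd, -0.0880 to 0.0906 for Meox2 and -0.125 to 0.0329 for Runx2. The cause of these changes was not tested. With 4 mice a group, differences smaller than the intervals given cannot be seen, and Foxc1, Foxc2 and Barx1 rest on few fragments.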

Other observations

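Levels of inhibitors that share the helix-loop-helix domain with Tcf21 and Twist factors differed widely. Id3, an inhibitor of E proteins, had 911 ± 41.8 FPKM in cKO and 962 ± 40.05 FPKM in WT (SD, n = 4 each), and Id2 had 88.4 ± 7.85 FPKM in cKO and 79.6 ± 6.68 FPKM in WT, whereas Id1 had 28.3 ± 6.05 FPKM in cKO and 24.2 ± 3.13 FPKM in WT. Hes1, a Notch effector related to Heyl, had 469.6 ± 9.78 FPKM in cKO and 474 ± 23.4 FPKM in WT. Bmp4, a ligand gene downstream of FoxF factors, had 104 ± 8.59 FPKM in cKO and 103 ± 16.3 FPKM in WT. None passed in limma (adjusted p = 0.922 for Id3, 0.897 for Id2, 0.922 for Id1, 0.99 for Hes1 and 0.99 for Bmp4). These genes were picked for their level after their values were seen.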
